A study of Mus musculus with 1248 samples.

Results

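The 9 genes described here are the cyclin-dependent kinase inhibitors Cdkn1a, Cdkn1b and Cdkn1c, the antiproliferative genes Btg1 and Btg2, the stress response genes Gadd45a, Gadd45b and Gadd45g, and the cyclin G2 gene Ccng2. They were chosen by symbol, as genes known to slow or stop cell division, and are 9 of 40756 genes in the table. Levels were read in tumour wells of single sorted cells from the mouse mammary carcinoma line 4T1 and the related line 4T1.2. Cells of either line were marked with Firefly luciferase and with mCherry, given to female BALB/c mice by intracardiac injection, and recovered from hindlimb bones by sorting on mCherry. The 7 groups were 4T1 culture, 4T1 bone at day 4, day 10 and day 16, a 4T1 mammary fat pad tumour at day 22, 4T1.2 culture and 4T1.2 bone at day 4. No group lacked the reporters, and none came from a mouse without tumour cells. The labels name no animal, plate or culture for any cell, so each group counted as 1 sample, no difference was tested, and wells of 1 group may share an animal.

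A well was called a tumour well when the summed level of the keratins Krt8 and Krt18 exceeded the summed level of the blood-cell genes Ptprc, Coro1a, Laptm5 and Rac2. Of 1248 wells, 1218 passed the filter and 501 of these were tumour wells: 54 of 4T1 culture, 137 of day 4, 54 of day 10, 71 of day 16 and 85 of the fat pad, with 53 from cultured 4T1.2 cells and 47 from those in bone. Tumour wells held 272862 to 34104356 counts, with group medians between 2981083 and 3346557. Levels are given as CPM, the counts of a gene scaled to 1e+06 counts in all genes. Summed over tumour wells, all 6 epithelial markers checked reached 5 CPM in every 4T1 group, and 3 of them did in the 4T1.2 groups. Krt8 and Krt18 of the rule are among the 6. The other 4, Epcam, Krt7, Cldn4 and Cdh1, were at least 2-fold lower at day 4 than in 4T1 culture, where 3.6% of all genes were lower. The median day 4 well held 0.436 CPM of Epcam, 46.7 of Krt7, 0 of Cldn4 and 8.33 of Cdh1. The median keratin sum was 1519 to 6212 CPM in tumour wells and 9.00 to 73.1 CPM in the other wells. Because the rule itself used the keratins, this gap follows in part from it and does not check the call. Tumour wells from bone were not free of host RNA. The 8 neutrophil markers summed to at least 190 CPM in every tumour well of the 4 bone groups, against a median of 0.345 CPM in 4T1 culture. The blood-cell sum of the rule reached 50 CPM in 52 wells of day 4, 15 wells of day 10 and 33 wells of day 16. In the fat pad it did so in 2 wells, in 4T1.2 day 4 in 32, and in no cultured well. Stromal and endothelial markers had a median sum of 8.86 CPM at day 16, but 1 well there held 73236 CPM of them. One day 16 well held 34104356 of the 232213235 counts of its group.

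These proteins act at different points of the cell cycle. The products of Cdkn1a (p21), Cdkn1b (p27) and Cdkn1c (p57) bind complexes of cyclins and cyclin-dependent kinases and hold back entry into S phase. BTG1 and BTG2 bring the CCR4-NOT deadenylase to messenger RNAs and shorten their tails. The GADD45 proteins are small stress sensors that bind the kinase MAP3K4 as well as PCNA and p21, while cyclin G2 is an unusual cyclin linked to exit from the cycle. Cdkn1a, Btg2 and Gadd45a are classical targets of the transcription factor p53, which 4T1 cells are known to lack in working form, and Btg2 and the Gadd45 genes also respond quickly to growth factors and stress. Cdkn1b and Ccng2 are known FOXO targets.

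The stretches before the start sites of 3 members are shown because large differences described below are those of these genes: Btg2 between mouse and culture, Gadd45g between bone and both culture and the fat pad, and Gadd45b between the 2 lines in culture. They are the 250 bases upstream of the RefSeq start on build GRCm38.p6, and capitals mark the letters TGACGTCA (the cyclic AMP response element, CRE), CCAAT and TATAAA.
Btg2, chr1:134079156-134079405, minus strand: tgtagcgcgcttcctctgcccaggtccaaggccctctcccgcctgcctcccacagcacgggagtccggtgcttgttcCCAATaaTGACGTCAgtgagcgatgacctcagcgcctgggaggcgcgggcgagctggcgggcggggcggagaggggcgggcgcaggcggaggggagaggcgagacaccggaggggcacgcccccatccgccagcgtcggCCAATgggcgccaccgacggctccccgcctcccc
Gadd45g, chr13:51846425-51846674, plus strand: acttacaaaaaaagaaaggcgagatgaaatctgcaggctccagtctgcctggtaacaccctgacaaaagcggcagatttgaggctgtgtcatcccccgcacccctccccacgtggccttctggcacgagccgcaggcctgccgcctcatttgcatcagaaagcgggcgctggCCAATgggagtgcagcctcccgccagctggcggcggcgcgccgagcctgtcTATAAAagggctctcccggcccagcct
Gadd45b, chr10:80929841-80930090, plus strand: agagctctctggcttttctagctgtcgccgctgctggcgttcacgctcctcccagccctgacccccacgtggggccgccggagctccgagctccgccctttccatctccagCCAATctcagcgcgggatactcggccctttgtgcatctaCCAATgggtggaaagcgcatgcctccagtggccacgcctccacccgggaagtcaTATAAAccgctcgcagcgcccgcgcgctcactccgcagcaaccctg
Motifs were searched on both strands of the 32851 stretches of this length in the table, and a match is a run of letters, not a shown binding site. TGACGTCA begins at position -166 of Btg2, with -1 the last base before the start, and 1.55% of all stretches hold it. Btg2 was the only one of the 8 members with an entry to hold it. TATAAA, held by 12.4% of stretches, begins at -27 in Gadd45g and at -46 in Gadd45b, and also lies at -26 in Btg1. CCAAT, held by 33.8%, lies in Btg2, Gadd45g and Gadd45b, and GGGCGG, held by 32.7%, lies 3 times in Btg2, 1 time in Gadd45b and not in Gadd45g. The FOXO letters GTAAACA, held by 3.17%, were found in Btg1 alone among the members. TGANTCA, the AP-1 letters, held by 6.75%, the CArG box, held by 1.47%, and the NF-kB site, held by 3.90%, were found in none of the 9 entries of these 8 members.

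In 4T1 cells at day 4 in bone, 4 of the 8 members with at least 5 CPM in either group were at least 2-fold higher than in culture: Btg2, Gadd45g, Cdkn1a and Btg1. By the same rule 5.18% of the 10234 genes tested were higher and 3.6% were lower. No member was lower by 2-fold. Differences are log2 ratios of CPM plus 5, over counts summed across the tumour wells of a group, and the median over the 8 members was 0.85 against -0.06 over all genes tested. In 4T1.2 cells at day 4, 5 of 8 members were higher than in 4T1.2 culture, where 6.17% of genes were higher and 3.15% lower. Those were Btg2, Gadd45g, Gadd45b, Cdkn1a and Gadd45a. Of these 5, Btg2, Gadd45g and Gadd45b passed in wells with a blood-cell sum under 50 CPM, and Btg2 and Gadd45g in the higher-numbered wells, where Gadd45b had a ratio of 0.74. Mki67, a marker of cycling cells, was high in the same groups. It stood at 183 CPM at day 4 against 110 in 4T1 culture, and at 230 against 91.9 CPM in 4T1.2. Median non-tumour wells held more Mki67 than median tumour wells, at 243 against 154 CPM at day 4 and 384 against 210 CPM in 4T1.2 day 4. The part of host RNA in the Mki67 levels was not tested.

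**Figure D1:**
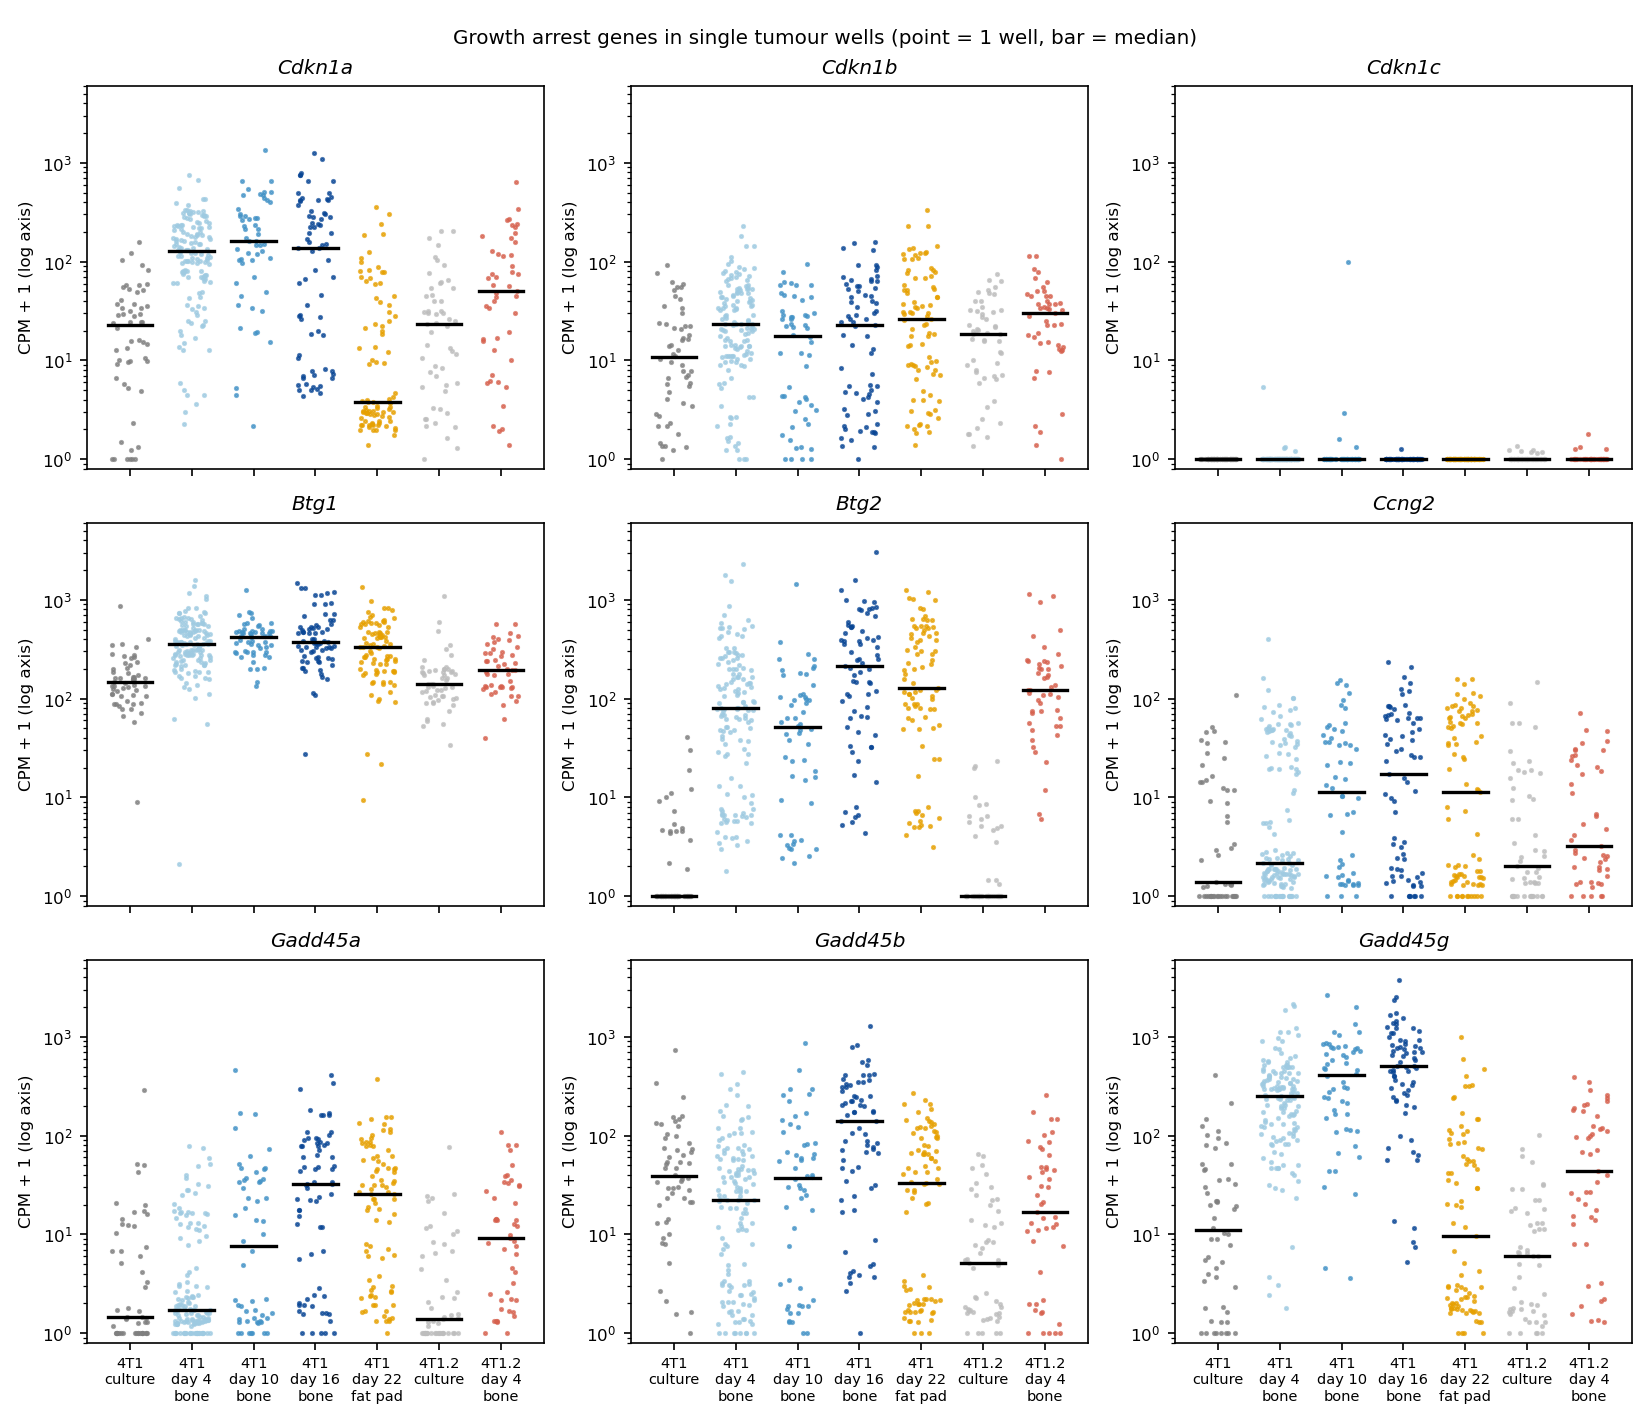
Level of each member in single tumour wells of the 7 groups, as CPM plus 1 on a log axis. Points are wells and bars are medians; Btg2 lies at a median of 0 in both cultures and at 50.3 to 212 CPM in the 5 groups from mice, and Cdkn1c stands above 5 CPM in 1 well only.

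Cdkn1a (chr17:29090976-29100727, plus strand) was high in bone. Its summed level in the fat pad was near that of culture, but the median well held 2.82 CPM against 21.6 CPM, and 5 of 85 wells carried 44.1% of the fat pad's counts. Summed over wells it was at 29.2 CPM in 4T1 culture (95% counting interval 28.3 to 30.0) and at 156 CPM at day 4 (155 to 157). Day 10 stood highest at 254 CPM and day 16 at 202 CPM. The fat pad had 32.1 CPM. The 4T1.2 line had 34.5 CPM in culture and 85.5 CPM at day 4. All 7 summed levels were apart beyond counting error of reads, which leaves out the spread between wells. Their order was 4T1 culture, fat pad, 4T1.2 culture, 4T1.2 day 4, day 4, day 16 and day 10. Single wells of all groups overlapped, and by medians the fat pad lay below both cultures.

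Single wells show how unevenly Cdkn1a was carried. Wells of 4T1 culture ran from 0 to 155 CPM with a median of 21.6. At day 4 they ran from 1.28 to 751 with a median of 128, and 94.9% of wells held at least 10 CPM. Day 10 wells ran from 1.15 to 1343 CPM with a median of 162. The day 16 wells split widely, with quartiles at 10.1 and 317 CPM around a median of 138. In the fat pad the highest well held 360 CPM and 33 of 85 wells held 10 CPM or more (38.8%), and by medians its log2 ratio to culture was -1.77 where the summed levels gave 0.12. The 4T1.2 medians were 22.5 CPM in culture and 49.1 CPM at day 4, with wells from 0.394 to 646 CPM at day 4.

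The log2 ratio of Cdkn1a was 2.23 between day 4 and culture in 4T1 and 1.19 in 4T1.2. In 4T1.2 it passed 2-fold under 12 of 15 alternatives, and was 0.83 at its lowest. From day 4 to day 16 the ratio was 0.37, and day 16 stood 2.48 above the fat pad. Host RNA moved with Cdkn1a in both directions. At day 16 the 38 wells with a blood-cell sum under 50 CPM held 342 CPM and the 33 others 57.8 CPM, and with those 38 wells against the matching day 4 wells the ratio was 1.25. Non-tumour wells also carried the gene, with medians of 152 CPM at day 4, 277 at day 10 and 253 at day 16. At day 4 the wells under 50 CPM of blood-cell RNA held 141 CPM and the others 182 CPM. The part of host RNA in the tumour wells' levels was not tested.

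Cdkn1b (chr6:134920401-134925513, plus strand) was lower and flatter. Its lowest level was the 19.5 CPM of 4T1 culture and its highest the 46.2 CPM of the fat pad, with 20.8 at day 10, 22.6 in 4T1.2 culture, 31.3 at day 4, 32.4 in 4T1.2 day 4 and 35.4 at day 16 in between. Counting intervals of 4T1 culture (18.8 to 20.2) and day 10 (20.1 to 21.5) overlapped, and those of day 4 (30.7 to 31.8) and 4T1.2 day 4 (31.4 to 33.3) overlapped. The median well of 4T1 culture held 9.71 CPM, and those of the 3 bone times 22.2, 16.5 and 22.0 CPM from day 4 to day 16, next to 25.0 CPM in the fat pad. The fat pad against culture was the 1 comparison in which Cdkn1b passed 2-fold, with a log2 ratio of 1.06 that became 0.93 with a pseudocount of 10. In the fat pad 16.5% of wells held 100 CPM or more, and in 4T1 culture, day 10 and 4T1.2 culture none did.

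Cdkn1c (chr7:143458339-143461050, minus strand), an imprinted inhibitor, was next to absent. It had no count in 4T1 culture or the fat pad, where the counting intervals ended at 0.0227 and 0.0152 CPM, and no more than 0.0648 CPM in any other group but day 10. The 2.50 CPM of day 10 came from 1 well, which held 99.0 CPM with Mki67 at 1.02 CPM, and the next tumour well of any group stood at 4.40 CPM. Since no group reached 5 CPM, the gene entered none of the 8 comparisons.

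Btg1 (chr10:96617006-96622809, plus strand) was present in almost every well. The cultures of 4T1 and 4T1.2 held 185 and 186 CPM, and their counting intervals overlapped (183 to 187 and 184 to 188). In the bone groups of 4T1 it stood at 407, 415 and 450 CPM from day 4 to day 16, and the fat pad had 378 CPM. At 220 CPM 4T1.2 day 4 lay nearer to the cultures. Median wells held 145 and 140 CPM in the cultures of 4T1 and 4T1.2 and 194 CPM in 4T1.2 day 4. The bone wells of 4T1 had medians of 358, 422 and 371 CPM from day 4 to day 16 and those of the fat pad 330 CPM. Every day 10 well held at least 134 CPM. The log2 ratio of day 4 to culture was 1.11 in 4T1 and lay between 1.08 and 1.27 under the alternatives run, while in 4T1.2 it was 0.23. Median non-tumour wells held 282, 403 and 351 CPM in 4T1 bone by day, and 442 CPM in 4T1.2 bone. Tumour wells with a blood-cell sum under 50 CPM held less Btg1 than the others in each bone group. By day, 4T1 had 398, 386 and 345 CPM against 422, 505 and 558 CPM. For 4T1.2 the values were 147 and 254 CPM, and the first lay below the 186 CPM of its culture. The part of host RNA in the Btg1 levels was not tested.

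Btg2 (chr1:134075170-134079120, minus strand), an early responding relative of Btg1, gave the largest ratio of any member. In culture it stood at 3.00 CPM in 4T1 and 3.21 CPM in 4T1.2, with a median well of 0 in both and highest wells of 40.1 and 22.4 CPM. In 4T1 from bone it held 175, 109 and 354 CPM from day 4 to day 16, in the fat pad tumour 272 CPM and in 4T1.2 from bone 205 CPM. Wells at day 4 ran from 0.812 to 2291 CPM with a median of 78.5. Day 10 wells ran from 1.17 to 1433 with a median of 50.3, and day 16 wells from 3.40 to 3041 with a median of 212. Fat pad wells ran from 2.17 to 1250 CPM, median 128, and 4T1.2 day 4 wells from 5.06 to 1133, median 121. The 2 cultures differed by less than the counting error, and every group from mice lay above both, though its lowest wells overlapped them.

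The log2 ratio of Btg2 was 4.50 between day 4 and culture in 4T1, 4.67 in 4T1.2 and 5.11 between the fat pad and culture. From day 4 to day 16 it was 0.99, just under the 2-fold mark, and 9 of 16 alternatives put it past the mark. Without the deepest day 16 well it was 1.11, and the day 16 ratios of Gadd45a, Gadd45b and Gadd45g to day 4 became 2.36, 2.13 and 1.26. Non-tumour wells of bone held much of this RNA, with a median of 346 CPM at day 4 and 643 CPM in 4T1.2 day 4. In day 4 tumour wells with a blood-cell sum under 50 CPM Btg2 was at 140 CPM, against 237 CPM in the others. At day 16 the order turned, with 505 CPM in wells under 50 CPM and 198 CPM in the rest. The part of host RNA in these levels was not tested.

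**Figure D2:**
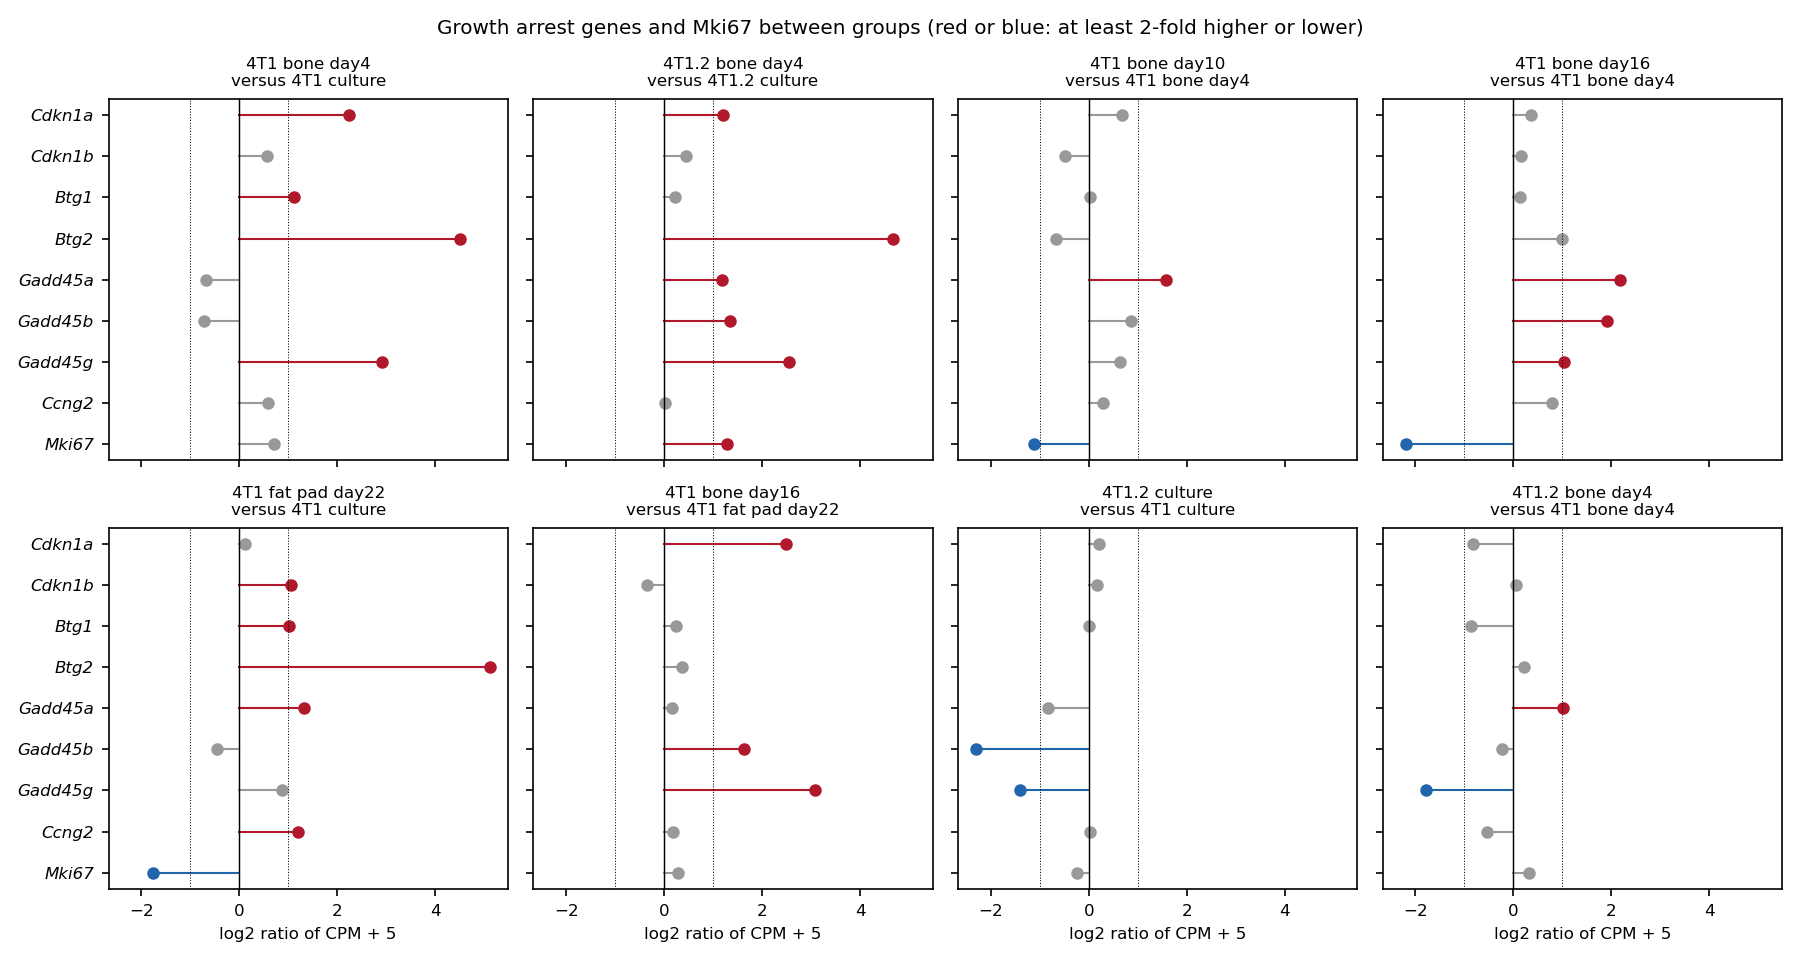
Log2 ratio of summed CPM plus 5 for the 8 members with at least 5 CPM and for Mki67 in the 8 comparisons. Red and blue points passed 2-fold higher and lower and dotted lines mark 2-fold; Btg2 reached 4.50, 4.67 and 5.11 against culture, and Mki67 lies to the left in day 10, day 16 and the fat pad.

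Gadd45g (chr13:51846678-51848468, plus strand) was the member with the highest level per exon length in bone. It stood at 38.3 CPM in 4T1 culture, 323 at day 4, 507 at day 10 and 666 at day 16. The fat pad held 74.4 CPM. In 4T1.2 it was at 11.3 CPM in culture and 90.2 CPM at day 4, and all 7 levels were apart beyond counting error. Wells of 4T1 culture ran from 0 to 413 CPM, median 9.99, and day 4 wells from 0.795 to 2141, median 251. Day 10 wells ran from 2.65 to 2645, median 408, and day 16 wells from 4.22 to 3715, median 510. The fat pad wells ran from 0 to 989 CPM with a median of 8.64, next to the 9.99 CPM of culture.

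Between day 4 and culture the log2 ratio of Gadd45g was 2.92 in 4T1 and 2.54 in 4T1.2. Day 16 stood 3.08 above the fat pad and 1.03 above day 4. The last of these passed 2-fold under 13 of 16 alternatives and was 0.91 at its lowest. Non-tumour wells carried the gene unevenly, with medians of 2.92 CPM at day 4, 7.85 at day 10, 11.5 at day 16 and 6.26 in 4T1.2 day 4. Their means, which are nearer in kind to summed levels, were 77.5, 78.5 and 95.4 CPM from day 4 to day 16, and 75.2 CPM in 4T1.2 day 4, where the tumour wells had 90.2 CPM. Day 4 tumour wells held 303 CPM where the blood-cell sum was under 50 CPM and 358 CPM where it was not, and in 4T1.2 day 4 these values were 54.7 and 107 CPM. The part of host RNA was not tested.

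Gadd45a (chr6:67035096-67037457, minus strand) was low at day 4 and higher later. Culture of 4T1 had 13.6 CPM, and bone 6.65, 29.9 and 47.5 CPM from day 4 to day 16, while the fat pad had 41.6 CPM. In 4T1.2 it was at 5.42 CPM in culture and 18.6 CPM at day 4. The median well held 0.696 CPM at day 4, 6.64 at day 10 and 31.0 at day 16, and the share of wells with 10 CPM or more was 22.6%, 46.3% and 69.0%. The gene was on or off in many wells rather than spread evenly. The highest wells held 77.6, 458 and 408 CPM from day 4 to day 16 and 373 CPM in the fat pad tumour. In 4T1 culture 1 well held 286 CPM while the median well held 0.441.

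From day 4 the log2 ratio of Gadd45a was 1.58 at day 10 and 2.17 at day 16, and both passed 2-fold under every alternative run. At day 10 it was the 1 member of 8 to pass, where 4.64% of genes were higher and 2.73% lower. At day 16 it passed with Gadd45b and Gadd45g, 3 of 8 members, where 10.2% of genes were higher and 9.28% lower. Non-tumour wells held a median of 1.39 CPM at day 4 and at day 10 and 1.02 CPM at day 16, but means of 45.9, 42.1 and 27.5 CPM from day 4 to day 16. In 4T1.2 the ratio of day 4 to culture was 1.18. Host RNA moved with it, and its part was not tested. Wells with a blood-cell sum under 50 CPM held 5.03 CPM and the 32 others 24.9 CPM. In those 15 wells the ratio to culture was -0.056, and the non-tumour wells of that group had a median of 53.9 CPM.

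Gadd45b (chr10:80930073-80932204, plus strand), which responds to TGF-beta and NF-kB signals, stood at 76.3 CPM in 4T1 culture and at 44.5, 85.0 and 180 CPM from day 4 to day 16 in bone. The fat pad had 54.6 CPM. The 4T1.2 line held 11.5 CPM in culture and 36.8 CPM at day 4. Median wells held 37.7 CPM in 4T1 culture, 21.3, 36.1 and 140 CPM from day 4 to day 16 and 32.0 CPM in the fat pad tumour. For 4T1.2 they were at 4.15 CPM before injection and at 15.7 CPM on day 4. Wells of day 16 reached 1284 CPM, and 54.9% of them held 100 CPM or more, against 13.1% at day 4. The log2 ratio of day 16 was 1.90 to day 4 and 1.64 to the fat pad.

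Ccng2 (chr5:93267257-93276231, plus strand) stood at 11.6 CPM in 4T1 culture, at 20.0, 25.6 and 38.4 CPM from day 4 to day 16 in bone and at 33.4 CPM in the fat pad tumour. The 4T1.2 line held 11.9 CPM cultured and 12.2 CPM on day 4. The levels of 4T1 culture and both 4T1.2 groups had overlapping counting intervals. Median wells were low, with 0.384 CPM at the least (4T1 culture) and 16.4 CPM at the most (day 16), while the highest wells held 71.0 to 395 CPM. Only the fat pad against culture passed 2-fold, with a log2 ratio of 1.204.

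Per kilobase of exon the order of the members changed from culture to bone. In 4T1 culture it ran from Gadd45b at 48.0 CPM per kb over Btg1 at 35.1 and Gadd45g at 32.6 to Cdkn1a at 8.21, Gadd45a at 7.70, Cdkn1b at 4.29, Ccng2 at 2.13 and Btg2 at 1.09. At day 16 Gadd45g led with 568 CPM per kb, before Btg2 at 129, Gadd45b at 113, Btg1 at 85.3 and Cdkn1a at 56.9. Gadd45a followed at 26.9, Cdkn1b at 7.78 and Ccng2 at 7.03 CPM per kb. Btg2 thus moved from the last of the 8 members to the second.

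The fat pad tumour shared some high members with day 16 bone and differed from it in others. Against culture 5 of 8 members were higher, Btg2, Gadd45a, Ccng2, Cdkn1b and Btg1, where 10.7% of genes were higher and 13.3% lower. With a pseudocount of 10, or in the higher-numbered wells alone, the count was 3. Day 16 bone against the fat pad had 3 of 8 members higher, Gadd45g, Cdkn1a and Gadd45b, where 7.48% of genes were higher and 4.23% lower. All 3 passed under every alternative run. The 5 members above were within 2-fold between the fat pad and day 16 bone. Fat pad and day 16 levels were 272 and 354 CPM for Btg2 and 41.6 and 47.5 for Gadd45a. For Ccng2 they were 33.4 and 38.4 CPM, for Cdkn1b 46.2 and 35.4, and for Btg1 378 and 450. Day 16 itself was not compared with culture. The blood-cell sum had a median of 43.0 CPM in day 16 wells and 4.60 CPM in fat pad wells. Day and site differ together between these groups, so they cannot be told apart.

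Between the lines in culture, 2 of 7 members were lower in 4T1.2, Gadd45b with a log2 ratio of -2.30 and Gadd45g with -1.40, where 3.62% of genes were higher and 4.98% lower. In wells, 32.1% of 4T1.2 cells and 81.5% of 4T1 cells held at least 10 CPM of Gadd45b. Gadd45g medians were 5.00 CPM in 4T1.2 and 9.99 CPM in 4T1, and by medians the gene did not pass 2-fold. In bone at day 4 Gadd45g was again lower in 4T1.2, with a ratio of -1.78, and Gadd45a higher with 1.02, where 4.19% of genes were higher and 5.07% lower. The Gadd45a difference passed 2-fold under 7 of 15 alternatives, and in wells with a blood-cell sum under 50 CPM its ratio was -0.056. Gadd45b, at 36.8 and 44.5 CPM, was within 2-fold between the lines in bone.

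No member differed by 2-fold between wells with little Mki67 and the rest at day 4 or day 16, and some were higher by that mark in the low wells at day 10 and in the fat pad. Wells were parted at 10 CPM of Mki67 in the 4 groups with at least 10 wells on either side. At day 4, 16 wells were under 10 CPM and 121 were not, and no member passed 2-fold either way, where 3.11% of genes were higher and 4.06% lower. Cdkn1a stood at 127 CPM in the low wells and 159 CPM in the rest. At day 16, with 56 wells under and 15 not, again no member passed, where 11.3% of genes were higher and 8.46% lower. There Cdkn1a was at 183 CPM in the low wells and 292 CPM in the rest. Smaller differences at day 16 went the other way for Btg1, at 486 against 284 CPM with a log2 ratio of 0.76, for Ccng2, at 41.6 against 23.5 CPM with 0.71, and for Gadd45b, at 191 against 133 CPM with 0.50. These 3 ratios were above 0 under all 10 alternatives run.

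At day 10, 18 wells were under 10 CPM of Mki67 and 36 were not, and 4 of 9 members were higher in the low wells, where 7.44% of genes were higher and 5.82% lower. Gadd45a stood at 55.5 against 16.7 CPM, Gadd45b at 148 against 52.8 and Btg2 at 178 against 74.3, while Cdkn1c passed through its 1 well. For Btg2 the median wells were alike, at 50.3 and 50.4 CPM, and its ratio of 1.203 became -0.085 among wells with a keratin sum above 10 times the blood-cell sum. Gadd45a, with 1.48, passed under every alternative run. Under that keratin rule Gadd45a alone passed, and Gadd45b did not. In the fat pad, with 72 wells under and 13 not, Btg2 stood at 301 against 120 CPM and Gadd45b at 60.4 against 24.0 CPM, where 6.54% of genes were higher and 6.26% lower. Neither of those passed 2-fold when the threshold was 1 CPM.

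**Figure D3:**
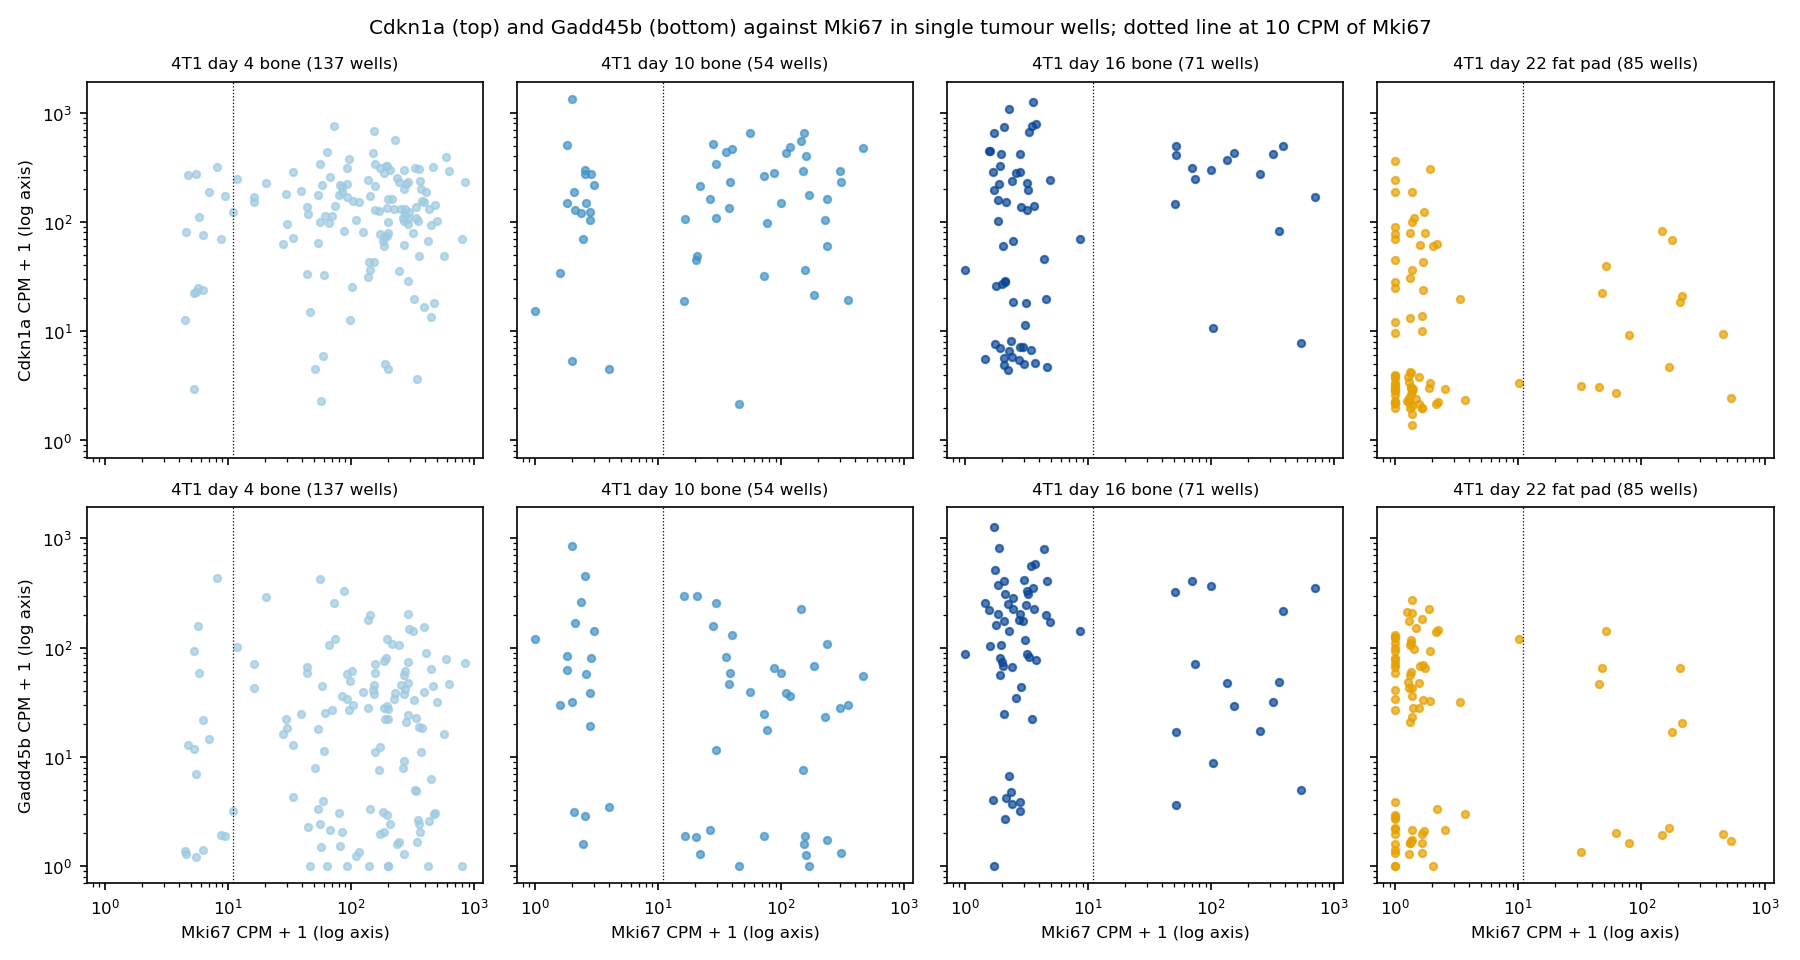
Cdkn1a (top) and Gadd45b (bottom) against Mki67 in single tumour wells of 4 groups, as CPM plus 1 on log axes, with a dotted line at 10 CPM of Mki67. High Cdkn1a wells lie on both sides of the line at day 4, day 10 and day 16, and 56 of 71 day 16 wells and 72 of 85 fat pad wells lie to the left of it.

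Many single wells carried both Mki67 and a growth arrest gene at high level. At day 4, 107 wells had Mki67 at 50 CPM or more, and 68 of them (63.6%) also had Cdkn1a at 100 CPM or more, against 16 of the 30 other wells (53.3%). Gadd45g reached 100 CPM in 81 of the 107 wells (75.7%) and in 24 of the 30. At day 16 Cdkn1a reached 100 CPM in 11 of 14 wells with Mki67 at 50 CPM or more and in 28 of the 57 others, whereas Gadd45b did so in 4 of the 14 and in 35 of the 57. Over wells of a group, Spearman's rho of Cdkn1a with Mki67 lay between -0.22 and 0.17 in the 7 groups (47 to 137 wells). For Cdkn1b it was 0.37 in 4T1 culture (54 wells), 0.33 at day 4 (137 wells), 0.32 in 4T1.2 culture (53 wells) and -0.23 at day 10 (54 wells). The lowest value for a member other than Cdkn1c was -0.31, for Gadd45b at day 10. These are weak correlations over wells that differ in depth and may share an animal, and they are given as a description.

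Genes of single cycle phases gave further correlations. At day 4 Cdkn1b had a rho of -0.45 with the summed level of 15 S phase genes and 0.37 with that of 15 G2 and M phase genes over 137 wells. In 4T1 culture its values were -0.29 and 0.41. Elsewhere its rho with the S phase sum lay between -0.16 at day 10 and 0.04 in 4T1.2 culture. Gadd45g had -0.51 with the S phase sum at day 10 and -0.30 at day 4, but 0.26 in 4T1 culture, and between -0.11 and 0.06 in the other 4 groups. Ccng2 had -0.34 with the S phase sum and 0.40 with the G2 and M sum at day 4, and over the other 6 groups between -0.17 and 0.03 with the former and between -0.22 and 0.34 with the latter.

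The cycle genes themselves split day 4 from the later groups. At day 4 against culture 0 of 15 G2 and M phase genes and 0 of 15 S phase genes passed 2-fold in 4T1. At day 10 against day 4, 14 of 15 G2 and M phase genes were lower, among them Ube2c at 105 against 479 CPM, and 0 of 15 S phase genes were. At day 16 all 15 G2 and M phase genes and 14 of 15 S phase genes were lower than at day 4, with medians of -3.06 and -2.38 against -0.02 over all genes. The mitotic kinase gene Plk1 stood at 8.84 against 184 CPM and Rrm2, a subunit of ribonucleotide reductase, at 32.4 against 401. Of 17 cyclins, cyclin-dependent kinases and pocket protein genes 10 were lower at day 16, led by Ccnb1 at 24.2 against 347 CPM, and 0 were higher. The fat pad against culture gave the same counts for this list, 10 lower and 0 higher of 17, with 14 of 15 lower in either phase list.

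**Figure D4:**
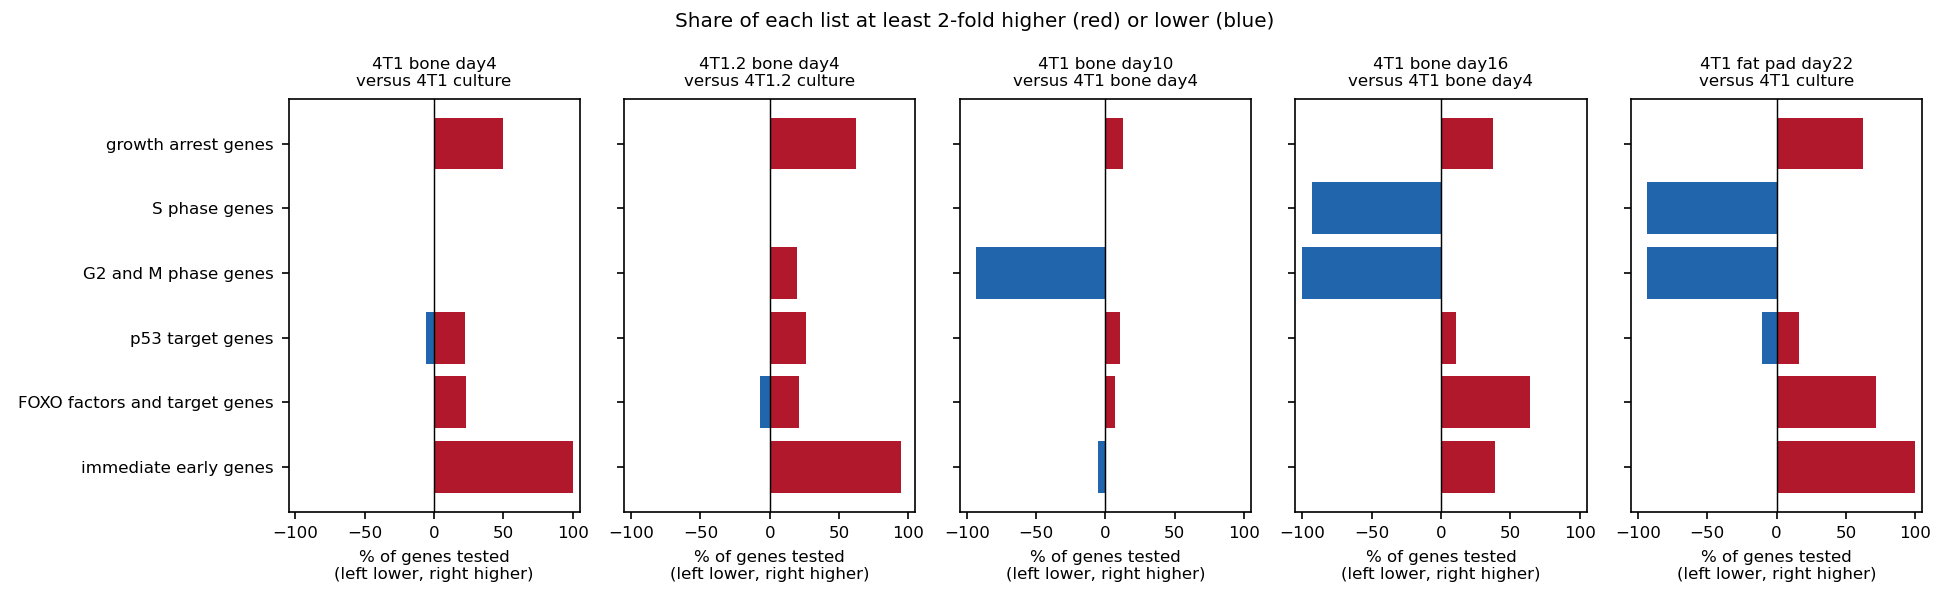
Share of each gene list that passed 2-fold, in percent of its genes tested, lower to the left and higher to the right, in 5 comparisons. S phase and G2 and M phase genes lie to the left at day 16 and in the fat pad, and immediate early genes to the right in all 3 comparisons with culture.

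Relatives outside the 9 members included few that passed 2-fold. Of 6 INK4 inhibitors and other relatives with at least 5 CPM, the antiproliferative genes Tob1 and Tob2 were higher at day 4 than in culture, at 55.2 against 20.0 and 24.7 against 7.31 CPM. In 4T1.2 no relative passed. At day 16 Btg3 stood at 48.7 against 14.4 CPM at day 4, and in the fat pad Cdkn2c, the INK4 gene of p18, at 119 against 50.5 CPM in culture. Of 8 genes whose products work with BTG and TOB proteins, CCR4-NOT genes and Pabpc1, none passed 2-fold in any of the 8 comparisons. Of 5 GADD45 partner kinase genes tested, 1 was higher at day 4, Mapk8 at 19.9 against 6.36 CPM, and in 4T1.2 none was.

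Genes known as p53 targets were counted too, and their medians differed between comparisons. At day 4 against culture 4 of 18 were higher and 1 was lower, with a median of -0.16 against -0.06 over all genes. By the same rule 5.18% of all genes were higher and 3.6% lower. Apart from Cdkn1a and Btg2 the higher ones were Bbc3 at 32.4 against 11.1 CPM and Plk3 at 165 against 75.2 CPM, and the death receptor gene Fas was lower at 6.86 against 20.7 CPM. In the fat pad 3 of 19 were higher and 2 lower, with Aen at 6.73 against 66.4 CPM. Those shares lay near the 10.7% higher and 13.3% lower of all genes, and the members Btg2 and Gadd45a were among the 3. For 4T1.2 at day 4, 5 of 19 were higher, 2 of them not members, and 0 were lower. Of all genes 6.17% were higher and 3.15% lower in that comparison. The median there was 0.22 against -0.03 over all genes. Against day 4, the medians were 0.20 against -0.12 at day 10 and 0.36 against -0.02 at day 16. FOXO factors and targets were counted apart from the members. Leaving those out, 3 of 11 were higher at day 4 and 8 of 12 in the fat pad against culture. The shares over all genes were 5.18% and 10.7%. At day 16 against day 4, 9 of 12 were higher, where 10.2% of all genes were. Sesn3 stood at 85.4 against 16.3 CPM and Foxo1 at 44.0 against 9.35 CPM. The 2 members on the list, Cdkn1b and Ccng2, did not pass.

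Immediate early genes, transcribed within minutes of a stimulus, were higher in all groups from mice. All 18 passed at day 4 against culture and in the fat pad, and 17 of 18 in 4T1.2, with Fos at 6889 CPM at day 4, 6558 CPM in the fat pad and 19.0 CPM in 4T1 culture. Recovery from tissue goes with every group from mice, so handling and site cannot be told apart. Across wells Btg2 had the highest rho of the members to the summed level of this list in 4 of 7 groups, with 0.62 at day 10 (54 wells), 0.59 at day 16 (71 wells), 0.65 in the fat pad (85 wells) and 0.39 in 4T1.2 culture (53 wells). In 4T1.2 culture Btg2 had a median well of 0 and higher rho with gene counts (0.57) and with the blood-cell sum (0.61). It was not the highest at day 4 (137 wells), where Gadd45g had 0.45, Gadd45b 0.34 and Btg2 0.33. In 4T1.2 day 4 (47 wells) Gadd45g and Gadd45b had 0.21 and Btg2 0.09, and in 4T1 culture (54 wells) Cdkn1a had 0.46 and Btg2 0.08. At day 10 Gadd45b had 0.57 and Gadd45g 0.47. Gadd45a stayed between -0.05 and 0.21 in the 7 groups.

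Target genes of TGF-beta and BMP signals were higher in bone as well. At day 4 against culture 9 of 11 were higher and 1 lower, with a median of 1.44, and in 4T1.2 8 of 10 were higher. Day 16 against the fat pad had 8 of 11 higher, led by Id2 at 232 against 19.1 CPM and Id1 at 339 against 78.7 CPM. Over all genes, 5.18%, 6.17% and 7.48% were higher in these comparisons in turn. The fat pad was mixed against culture. Bhlhe40 stood at 371 against 82.1 CPM and Tsc22d1 at 173 against 41.7 CPM, but Id1 at 78.7 against 143 CPM and Id2 at 19.1 against 31.4 CPM.

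Among 9820 genes detected in at least 30% of wells of every group, the genes most like each member were ranked by the mean rho over the 7 groups (501 wells). Btg2 was nearest to Zfp36 (0.38), which encodes an RNA-decay protein, then Atf3 (0.38) and Fos (0.35). For Cdkn1a they were Areg (0.31), the gene of the growth factor amphiregulin, Clic1 (0.30) and Dusp5 (0.29). Cdkn1b had Gata3 (0.28), a luminal transcription factor, Ccnf (0.24) and Klhl24 (0.23). Gadd45b had Cyr61 (0.28), Id2 (0.28) and Zfp36l1 (0.27), and Gadd45g had Slc38a2 (0.27), Tiparp (0.27) and Snai1 (0.26). Gadd45a had Lcn2 (0.25), Pnrc1 (0.24) and the blood-cell integrin gene Itgb2 (0.24). Btg1 had Pnrc1 (0.27), and Ccng2 had Baz2b (0.28).

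Members seldom tracked one another within a group. The strongest pair with both genes above 5 CPM was Btg2 with Gadd45b at day 10, with a rho of 0.64 over 54 wells, followed there by Gadd45b with Gadd45g at 0.47. At day 16 Cdkn1a and Btg2 had 0.41 over 71 wells. In the other 6 groups Btg2 and Gadd45b had values between -0.06 and 0.16.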

How the data were processed

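Each library came from 1 sorted cell by a changed form of Smart-seq2, per the labels' protocols, which also say that wells with an mCherry Ct value above 30 in qPCR were discarded. The authors deposited 1 table of whole-number read counts per gene symbol and cell, without molecular barcodes. Per the submitters' processing notes, the build was mm10 and the tools included STAR 2.6.0c and featureCounts 1.6.2, with FastQC 0.11.7 and Trim Galore 0.6.6, without their roles. Which annotation was counted is not given in the sources used. Of 40840 entries, 78 ERCC spike-ins, 2 reporters and 4 repeated date-like symbols stayed out of totals, with 0.670%, 0.187% and 0.0149% of counts.

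A well passed with at least 1000 detected genes, 50000 counts and at most 25% mitochondrial counts. Doublets were not called. The rule and the alternatives on blood-cell RNA address mixed wells only in part. Tumour wells still held up to 137116 CPM of neutrophil markers at day 10 and 43628 CPM of erythroid markers at day 4. No 2 cells held identical values. Counts were summed over the tumour wells of a group and scaled to CPM of gene totals. A gene was called with at least 5 CPM in either group and a 2-fold ratio of CPM plus 5. Intervals are exact Poisson at 95% for CPM and cover counting error of reads only, not the spread between wells. No test was made, because each of the 7 groups is 1 sample. Cell numbers in the labels only name wells. Positions and exon lengths are from GENCODE M21 (mm10), and promoter stretches from RefSeq.

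The members, the gene lists and the comparisons were chosen with earlier results of these data known. Genes named are the 9 members, Mki67, from each list up to 4 genes furthest along the list's median and 2 against it, and the 3 genes most like each member. Alternatives were TMM and RLE scaling from edgeR 4.0.16 in R 4.3.3, totals without mitochondrial genes, the mean of wells, pseudocounts of 1 and 10, no minimum CPM, no cell filter, stricter tumour rules, the lower-numbered or higher-numbered wells of each group alone, and Mki67 thresholds of 1 and 50 CPM. The median of wells, totals without immediate early genes and the removal of the deepest day 16 well were added after seeing the data. The other steps ran in Python 3.11.15 (pandas 2.3.3, numpy 2.4.6, scipy 1.17.1, figures by matplotlib 3.10.9). Of these steps the 2-fold call was tested on simulated counts.

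Host marker lists were summed over tumour wells. B-cell markers summed to 52.1 CPM at day 4 and 504 CPM in 4T1.2 day 4, erythroid markers to 396 CPM at day 4, macrophage markers to 740 CPM at day 10 and integrated stress response genes had 2 of 9 higher at day 4 against culture.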

Additional observations from a re-analysis of the deposited data

Results flagged for a closer look

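By summed levels, Gadd45a and Gadd45b lay on opposite sides of culture in the 2 lines at day 4 in bone. These differences between the lines were not tested. Gadd45a had a log2 ratio of -0.67 to culture in 4T1 and 1.18 in 4T1.2. In 4T1 culture 5 of 54 wells carried 76.0% of its counts. By median well, Gadd45a in 4T1 stood at 0.696 CPM at day 4 and at 0.441 CPM in culture, the other order. Gadd45b had -0.72 in 4T1 and 1.34 in 4T1.2. Levels in bone were closer than the ratios, at 44.5 CPM in 4T1 and 36.8 CPM in 4T1.2 for Gadd45b, while the cultures stood at 76.3 and 11.5 CPM. For Gadd45a the 4T1.2 wells with a blood-cell sum under 50 CPM held 5.03 CPM against 5.42 CPM in 4T1.2 culture.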

How the results depend on the processing

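No paired analysis was possible because cell numbers only name wells and each group is 1 sample. Of 318 counts of members under the alternatives 287 stayed within 1.5 times the main count and 31 did not, and of 1266 log2 ratios 584 stayed within the 95% counting error of the main value, 678 moved further and 4 changed sign after passing 2-fold. For 4T1.2 day 4 against 4T1 day 4, 0 members were higher under TMM and RLE scaling, the mean of wells, a pseudocount of 10, no cell filter, a keratin sum above 10 times the blood-cell sum, a blood-cell sum under 50 CPM and the higher-numbered wells, and 2 were lower under the last 3 and the median of wells. For 4T1.2 day 4 against its culture the higher count was 3 with a blood-cell sum under 50 CPM and 2 in higher-numbered wells. With a blood-cell sum under 50 CPM, Gadd45a had -0.056 in both comparisons of 4T1.2 day 4. For day 10 against day 4, Btg2 was lower (1 member) under the keratin rule of 10 times, a keratin sum of at least 500 CPM and in lower-numbered wells, and 2 members were higher with a blood-cell sum under 50 CPM, in higher-numbered wells and by the median of wells. For day 16 against day 4, 5 were higher with a blood-cell sum under 50 CPM and by the median. The fat pad against culture had 3 higher with a pseudocount of 10 and in higher-numbered wells, and 1 lower by the median (Cdkn1a). In higher-numbered wells 1 member (Gadd45a) was lower at 4T1 day 4 than in culture, and between cultures 1 member (Gadd45b) was lower by the median. In the fat pad split by Mki67, 0 members were higher at a threshold of 1 CPM and 1 by the mean of wells. At day 10, 2 were higher at a threshold of 50 CPM and 1 under the keratin rule of 10 times, where Cdkn1c had -4.1e-07 and Btg2 -0.085. The causes were not tested. The Mki67 split could not be made at 1 CPM for day 4 and day 10, with 0 and 5 wells under it, nor with a blood-cell sum under 50 CPM for day 4 and day 16, with 9 wells under 10 CPM and 7 wells above it. TMM factors ran from 0.938 at day 10 to 1.07 in 4T1 culture and 4T1.2 day 4.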
